A study of Mus musculus with 6 samples.

Results

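The Notch receptors Notch1, Notch2 and Notch3, the ligands Dll1, Dll3, Jag1 and Jag2, and the HES and HEY genes Hes1, Hes6 and Hey1 were followed through a knockdown of the transcription factor NF-Y in neuro2a cells, an established mouse neuroblastoma line. Members were chosen by name, through the RefSeq accession that the array gives for each probe. All 10 genes were on the array, with 13 of its 55681 probes, among 20145 genes that could be named in this way. Cells received miR RNAi against both NF-YA and NF-YC (knockdown, 3 arrays) or a control labelled only as vector (control, 3 arrays) by lipofection, and total RNA was taken after 2 days and hybridized to a one-colour mouse gene expression array. The methods name an empty vector and a non-targeting one as controls, and if these controls were the empty one, the load of an RNAi transcript and the loss of NF-Y cannot be told apart. No selection of transfected cells is described, so each array reads transfected and untransfected cells of 1 line together. The labels do not say whether replicates were separate cultures, and p-values measure the spread between these arrays, which may be technical.

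Notch receptors sit in the membrane and are activated by Delta and Jagged ligands on neighboring cells. An ADAM protease and then gamma-secretase cut the activated receptor, and its freed intracellular domain joins RBPJ and Mastermind in the nucleus to switch on HES and HEY genes, which encode repressors of neuronal differentiation factors. NF-Y is a complex of NF-YA, NF-YB and NF-YC that binds CCAAT boxes in promoters, and Notch activity in the nervous system is best known for keeping neural progenitors undifferentiated.

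Signals are given as log2 of the background-subtracted spot intensity minus the 75th percentile of its array, so a value of 0 is the array's 75th percentile. The level of 1 probe cannot be set against that of another. A gene was read from its brightest probe, and was called when limma's adjusted p over all tested probes was below 0.05 and the fold change was above 1.5. The knockdown itself was visible, with Nfya at a change of -0.76 (SE 0.05, adjusted p = 0.00128) and Nfyc at -1.81 (SE 0.04, adjusted p = 0.000323), while the third subunit Nfyb stood 0.83 higher (SE 0.06, adjusted p = 0.00131). Between 61.9% and 66.2% of spots were well above background on each array. The 6 arrays shared 1 slide, with all 3 controls and knockdown 1 in its first row and knockdown 2 and 3 in its second. All 18 tested neuronal and neuroblastoma markers were well above background on every array. Their summed signal was 480 to 494 times the array's 75th percentile in controls and 447 to 464 times in knockdown arrays. Mycn and Th were called lower and 0 were called higher, where 5% and 3.91% of all genes were. By adjusted p alone 7 were lower and 3 higher, the latter being Gata2, Isl1 and Gata3, where 31.5% of all genes passed. The 4 tested endothelial markers, mostly Kdr and with Cdh5 near background, summed to 13.7 to 15.2 in controls and 12 to 13.2 in knockdown arrays, and the part of these lists in the changes of the Notch genes was not tested.

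Among the Notch genes themselves the changes were small. Notch1, the receptor most often linked to the upkeep of neural progenitors, was lower by adjusted p, and Hey1 and Hes6 were higher, but each by less than 1.5-fold. Notch2 and Dll3 showed next to no difference, and Jag1 and Hes1 had no signal well above background. Of the 8 genes that could be tested, limma called 0 in either direction, where 8.9% of the 16490 genes tested were called, 5% lower and 3.91% higher, and 0 of the 11 tested probes of these genes were called, where 7.17% of all tested probes were. By adjusted p alone 1 member was lower and 2 were higher, where 31.5% of all genes passed, and 6 of the 8 passed at an unadjusted p below 0.05, where 46.2% of all genes did. The groups did not overlap for 6 of the 8 genes, 4 lower and 2 higher, where 54.7% of all genes were without overlap, 27.1% lower and 27.7% higher. The median change of the 8 genes was -0.09, beside 0.01 over all tested genes.

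**Figure D1:**
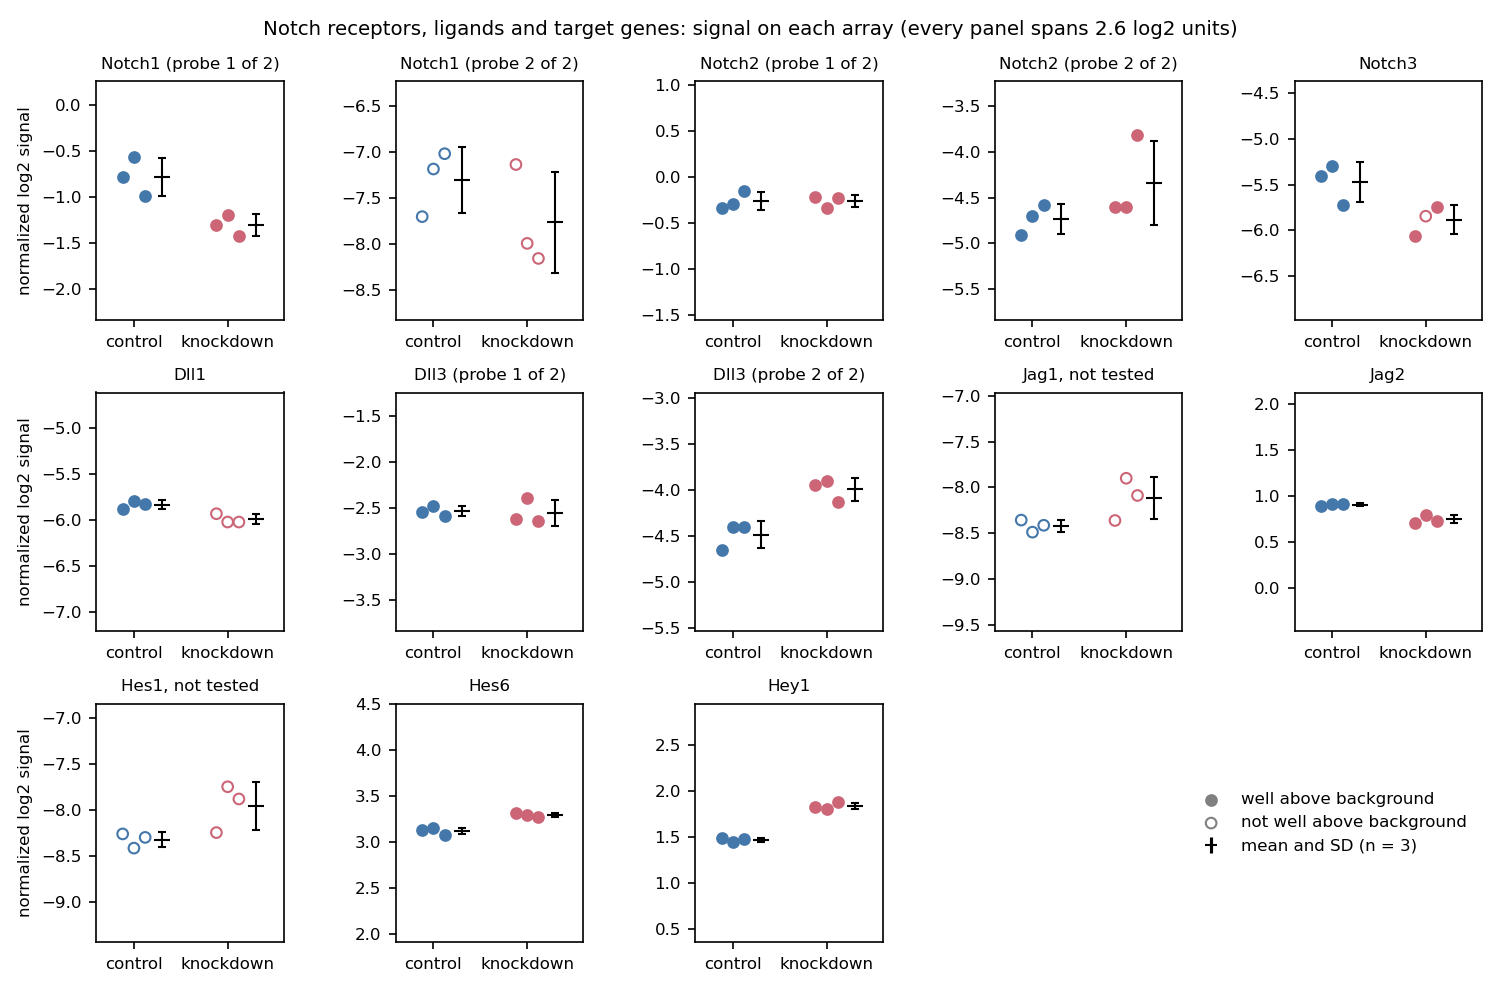
Normalized log2 signal (vertical axis) of each of the 13 probes of the 10 Notch genes on the 3 control and 3 knockdown arrays (horizontal axis), with the mean and SD of each group, filled points being well above background and open points not. By the brightest probe of each tested gene, knockdown arrays lie below all controls for Notch1, Notch3, Dll1 and Jag2 and above them for Hes6 and Hey1. They also lie above all controls for the dimmer Dll3 probe and for Hes1, while Jag1 and Hes1 are open on all 6 arrays.

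Notch1 had the largest change of the member receptors. For Notch1 (probe A_55_P2171897) the normalized log2 signal was -0.79, -0.57 and -0.99 on the control arrays and -1.3, -1.2 and -1.43 on the knockdown arrays. Every knockdown array was below every control array, although the controls were widely spread. The change was -0.53 (SE 0.13, 95% confidence interval -0.85 to -0.20, adjusted p = 0.0399 by limma), or 1.44-fold lower, just short of the fold needed for a call. A second Notch1 probe stayed near background on all 6 arrays. In such bulk RNA, fewer cells of a type and less RNA per cell cannot be told apart.

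Notch2, a receptor of the same family that is often expressed beside Notch1, gave -0.33, -0.30 and -0.16 on the control arrays and -0.21, -0.34 and -0.23 on the knockdown arrays (probe A_52_P289213). The groups lay over each other, with a change of 0.0031 (SE 0.07, 95% confidence interval -0.17 to 0.18, adjusted p = 0.981). Its dimmer second probe stood 0.39 higher (SE 0.25, adjusted p = 0.321), a difference carried by knockdown 3 alone. Set against each other array by array, Notch1 minus Notch2 was -0.46, -0.27 and -0.84 in controls and -1.09, -0.86 and -1.20 in knockdown arrays. The knockdown mean of that difference was lower by -0.53, with no overlap (exact permutation test, two-sided p = 0.1, the smallest that 3 against 3 arrays can give, 0.2 after adjustment over the 2 pairs computed, of which Dll1 and Dll3 is not given because Dll1 was near background).

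Notch3, the receptor known from vascular smooth muscle, was read near background. Its signal was -5.40, -5.30 and -5.72 on the control arrays and -6.06, -5.85 and -5.75 on the knockdown arrays, where knockdown 2 was not well above background. The highest knockdown array lay just under the lowest control array. The change of -0.41 (SE 0.14, 95% confidence interval -0.77 to -0.05) had an adjusted p of 0.102 by limma and was -0.06 after a model-based background correction, a setting in which Dll1 stood at -0.0035.

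Among the ligands, Jag2 came nearest to passing the test by the brightest probe. Jag2, a Jagged ligand that activates receptors on adjoining cells, had signals of 0.89, 0.91 and 0.91 on the control arrays and 0.71, 0.79 and 0.73 on the knockdown arrays. The groups did not overlap, and the controls lay very close together. The change of -0.16 (SE 0.04, 95% confidence interval -0.27 to -0.05) did not pass, with an adjusted p of 0.0559 by limma.

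Dll1, the Delta ligand used between differentiating neurons and their progenitor neighbors, was measured by 10 spots of 1 probe and was well above background, by a majority of spots, on 3 control arrays and on no knockdown array. Of its 10 spots, 7, 9 and 9 were well above background on the control arrays and 5, 2 and 4 on the knockdown arrays. Its signal was -5.88, -5.79 and -5.82 in controls and -5.93, -6.02 and -6.02 in knockdown arrays. Since the knockdown side was not well above background, only a limit can be given. That limit was 1.02-fold lower, a point value with no error, and the difference did not pass (adjusted p = 0.0882 by limma). After model-based background correction the change was -0.0035.

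Dll3, a Delta ligand that acts inside its own cell rather than activating neighbors, was read by 2 probes that disagreed. The brighter probe (A_55_P2045208) gave -2.54, -2.48 and -2.58 on the control arrays and -2.62, -2.39 and -2.64 on the knockdown arrays, a change of -0.02 (SE 0.08, 95% confidence interval -0.23 to 0.19, adjusted p = 0.896). The dimmer probe (A_51_P504494) gave -4.65, -4.40 and -4.40 in controls and -3.94, -3.90 and -4.13 in knockdown arrays. On that probe all knockdown arrays were above all controls, by 0.49 (SE 0.10, adjusted p = 0.0261 by limma), or 1.41-fold. Jag1, the other Jagged ligand, was near background on all 6 arrays and gave no change that could be tested.

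The member HES and HEY genes that could be read, Hey1 and Hes6, were both higher. Hey1, a repressor that Notch switches on directly in many tissues, had signals of 1.49, 1.45 and 1.48 on the control arrays and 1.84, 1.81 and 1.88 on the knockdown arrays. The gap was several times the spread inside either group. Its change of 0.37 (SE 0.04, 95% confidence interval 0.26 to 0.48, adjusted p = 0.00452 by limma) was the one among the 8 members with the lowest adjusted p, and the fold was 1.29.

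Hes6, a HES protein that opposes Hes1 and favors neuronal differentiation, had signals of 3.13, 3.15 and 3.08 on the control arrays and 3.31, 3.30 and 3.28 on the knockdown arrays. The groups were apart, by 0.17 (SE 0.04, 95% confidence interval 0.07 to 0.28, adjusted p = 0.0393), or 1.13-fold. Hes1, the classic Notch target in neural progenitors, was near background on all 6 arrays, so the level of the main readout of Notch activity was not measured here.

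The changes of Notch1, Hes6 and Hey1 moved little in size with the slide row as a block, but none of the 3 passed. In that fit knockdown 1 alone is set against the controls of its row, since knockdown 2 and 3 have no control in theirs. The changes were -0.52 for Notch1 (adjusted p = 0.2), 0.19 for Hes6 (adjusted p = 0.162) and 0.36 for Hey1 (adjusted p = 0.0538 by limma). Scaling arrays to their median instead, which moved the median of all genes to -0.11, left 0.06 for Hes6 and 0.25 for Hey1, with adjusted p of 0.633 and 0.0921 by limma.

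**Figure D2:**
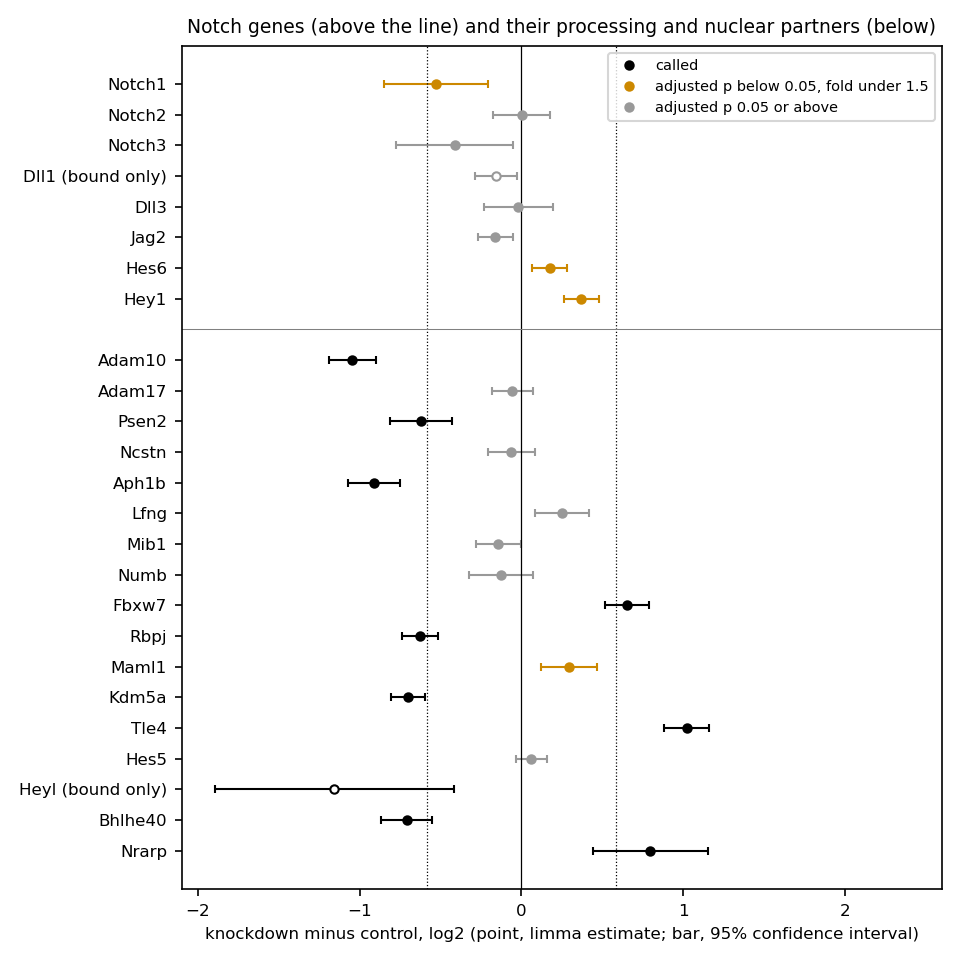
Change between knockdown and control arrays in log2 units (horizontal axis, limma estimate with its 95% confidence interval, 3 arrays a group) for the 8 tested Notch genes and 17 partners of the pathway (vertical axis), with dotted lines at a fold of 1.5 and open points where the knockdown group was not well above background. All 8 Notch genes lie between the dotted lines, from -0.53 for Notch1 to 0.37 for Hey1, while Adam10 lies at -1.05 and Tle4 at 1.02.

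The promoters of the Notch genes were read for the CCAAT box that NF-Y binds, in the 250 bases upstream of each transcription start that RefSeq lists on the GRCm38.p6 build. Windows were found for 8 of the 10 members, 10 windows in all, and Hes1 and Hey1 had no entry. The letters CCAAT, or ATTGG for the other strand, stood in 3 of the 10 windows, against 33.8% of 32851 windows of all genes. Those were windows of Dll1, Dll3 and Hes6, and both sites of Dll1 and of Hes6 lay in the window of 1 of the 2 starts listed for each. The sequences are shown 5′ to 3′ on the strand of the gene and end just before the start, with CCAAT or ATTGG in capitals, and the Notch1 window, which holds neither, is given beside them because Notch1 had the largest change among the members.
Notch1, chr2:26503823-26504072, minus strand: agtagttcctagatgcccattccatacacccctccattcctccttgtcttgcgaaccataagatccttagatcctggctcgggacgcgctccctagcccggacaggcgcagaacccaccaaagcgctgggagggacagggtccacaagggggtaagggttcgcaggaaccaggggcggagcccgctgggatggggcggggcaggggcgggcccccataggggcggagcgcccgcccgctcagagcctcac
Dll1, upstream of the first listed start, chr17:15375824-15376073, minus strand: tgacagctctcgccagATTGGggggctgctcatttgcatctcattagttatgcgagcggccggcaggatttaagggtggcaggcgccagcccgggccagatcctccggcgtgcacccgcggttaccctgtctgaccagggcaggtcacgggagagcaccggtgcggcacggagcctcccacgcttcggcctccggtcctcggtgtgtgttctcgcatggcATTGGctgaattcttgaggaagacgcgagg
Dll3, chr7:28301786-28302035, minus strand: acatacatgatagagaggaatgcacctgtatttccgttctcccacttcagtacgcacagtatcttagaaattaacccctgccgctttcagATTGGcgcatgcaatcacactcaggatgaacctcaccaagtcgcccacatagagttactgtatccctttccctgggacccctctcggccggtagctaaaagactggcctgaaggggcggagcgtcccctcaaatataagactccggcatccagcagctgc
Hes6, upstream of the second listed start, chr1:91413223-91413472, minus strand: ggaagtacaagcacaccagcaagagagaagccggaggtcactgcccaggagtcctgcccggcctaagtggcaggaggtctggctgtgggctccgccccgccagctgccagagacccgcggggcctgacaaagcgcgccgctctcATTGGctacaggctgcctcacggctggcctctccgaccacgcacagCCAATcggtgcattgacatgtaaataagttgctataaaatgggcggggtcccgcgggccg

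The boxes of Dll1 began 234 and 30 bases before the start, that of Dll3 at 160 bases, and those of Hes6 at 106 and 60 bases. Of the 3 genes with a box, Hes6 was 0.17 higher, Dll3 did not differ on its brighter probe, and Dll1 was near background. Of the genes whose windows held none, Notch1 changed by -0.53 and Notch2 by 0.0031. The letters TGGGAA or TTCCCA, the core that RBPJ binds, were in 0 of the 10 windows, against 21.6% of all windows, and the E-box CANNTG, bound by HES, HEY and proneural proteins, was in 6 of the 10, against 66.2%. No CCAAT match overlapped a match of the other motifs in these windows. A match is a run of letters and not a measured binding site, and the letters were not sought outside these windows.

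Some of the other genes of the pathway, a longer list that holds further receptors, ligands and targets, changed more than any member. The protease Adam10, the gamma-secretase genes Psen2 and Aph1b, and Rbpj were lower, and the corepressor Tle4 was higher. Of 97 further pathway genes, 94 were on the array and 87 could be tested. Limma called 7 of them lower and 3 higher, or 11.5%, which is near the 8.9% of all genes, and their median change was -0.02. Without a minimum fold 14 were lower and 22 were higher by adjusted p, where 31.5% of all genes passed. The counts of the single lists stand against the same shares of all genes, 5% called lower and 3.91% called higher, and nothing particular to a list is read from them.

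**Figure D3:**
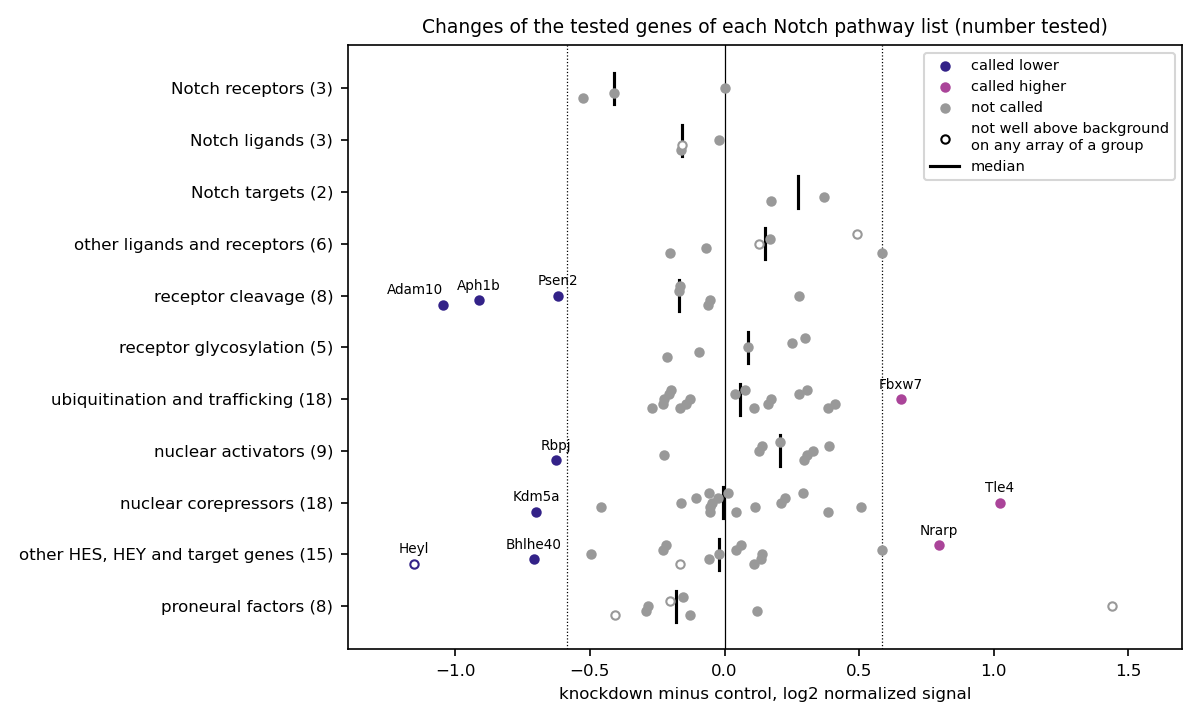
Change between knockdown and control arrays in log2 units (horizontal axis) of each tested gene in 11 Notch pathway lists (vertical axis, with the number tested), with the median of each list as a bar, dotted lines at a fold of 1.5, called genes named and open points where a group had no array well above background. The 3 called genes of receptor cleavage lie at -1.05, -0.91 and -0.62, and the medians of all lists other than the receptors lie between -0.18 and 0.27.

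Receptor cleavage had 8 tested genes, of which 3 were called lower, where 5% of all genes were, and 0 higher. Adam10, the protease that makes the first cut in an activated receptor, had signals of 1.91, 1.87 and 1.97 on the control arrays and 0.95, 0.81 and 0.85 on the knockdown arrays. The groups stood far apart, with a change of -1.05 (SE 0.06, 95% confidence interval -1.19 to -0.90, adjusted p = 0.000659 by limma), or 2.06-fold lower. Its promoter window held 2 CCAAT boxes, 225 and 81 bases before the start. Of the 12 windows of 7 called pathway genes, 3 held a box, against 33.8% of all windows. The other windows with a box were of Tle4 and Nrarp, both called higher. Those of Psen2, Aph1b and Rbpj, called lower, and of Fbxw7, called higher, held none. The Adam10 window is shown in the same way for comparison with the members.
Adam10, chr9:70678732-70678981, plus strand: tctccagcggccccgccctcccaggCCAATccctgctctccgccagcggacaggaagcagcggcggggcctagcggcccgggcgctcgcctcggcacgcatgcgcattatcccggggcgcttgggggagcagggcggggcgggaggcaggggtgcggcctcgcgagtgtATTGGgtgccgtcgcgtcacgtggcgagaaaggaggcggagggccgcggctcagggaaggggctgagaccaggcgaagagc

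Aph1b, a subunit that steadies gamma-secretase, was at 0.16, 0.16 and 0.32 on the control arrays and -0.69, -0.66 and -0.74 on the knockdown arrays. Its change was -0.91 (SE 0.06, adjusted p = 0.00118), and a second probe gave -0.44. Psen2, which provides a catalytic subunit of gamma-secretase, was at 0.37, 0.35 and 0.37 on the control arrays and -0.22, -0.15 and -0.40 on the knockdown arrays, a change of -0.62 (SE 0.08, adjusted p = 0.00515). Both were apart from the controls on all arrays, but Psen2 had an adjusted p of 0.061 by limma with slide row as a block and was not called without knockdown 3, at -0.55. Adam17, a related protease, and Ncstn, the gamma-secretase subunit that receives the substrate, were at -0.06 and -0.06, with adjusted p of 0.489 and 0.488. Aph1a and Psenen, further subunits of gamma-secretase that were named after their values were seen, were at -0.17 and -0.17, with adjusted p of 0.0745 and 0.0696 by limma. Furin, the remaining tested gene of receptor cleavage and also named after its values were seen, went the other way. It stood 0.28 higher (SE 0.05, adjusted p = 0.0154 by limma), a fold of 1.21, with no overlap.

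Of the nuclear activators, 1 of 9 tested genes was called. By adjusted p alone 1 was lower and 5 were higher, where 31.5% of all genes passed, and the median change of the list was 0.21. Rbpj, the DNA-binding partner of the Notch intracellular domain, was at 1.14, 1.06 and 1.12 on the control arrays and 0.51, 0.48 and 0.46 on the knockdown arrays. Its change of -0.63 (SE 0.04, adjusted p = 0.00124 by limma) came from 1 of its 2 probes, and the dimmer one stood at 0.12 (adjusted p = 0.303), so the mean of both, -0.25, was not called. Maml1, a Mastermind coactivator of the same complex, was 0.29 higher (SE 0.07, adjusted p = 0.0354), a fold of 1.23.

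The 18 tested corepressors held 1 gene called lower and 1 called higher. Tle4, a Groucho protein that HES proteins recruit, was at -1.69, -1.64 and -1.60 on the control arrays and -0.56, -0.61 and -0.69 on the knockdown arrays. Its change of 1.02 (SE 0.05, adjusted p = 0.000631 by limma) was a 2.03-fold increase, while a dimmer probe gave 0.27. Kdm5a, a histone demethylase that works with RBPJ at silenced target genes, was at 1.20, 1.17 and 1.24 on the control arrays and 0.52, 0.49 and 0.51 on the knockdown arrays, a change of -0.70 (SE 0.04, adjusted p = 0.000818). Knockdown and control arrays were apart for both genes.

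Of the 18 tested genes of ubiquitination and trafficking, Fbxw7 alone was called. Fbxw7, which marks the Notch intracellular domain for degradation, was at 1.87, 1.91 and 1.76 on the control arrays and 2.52, 2.50 and 2.50 on the knockdown arrays. Its change was 0.65 (SE 0.05, adjusted p = 0.00171 by limma), and the mean of its 2 probes, 0.57, was under the fold needed. Mib1, the ligase that lets Delta ligands signal, was at -0.14 (adjusted p = 0.127) and Numb, an inhibitor of Notch, at -0.13 (adjusted p = 0.307). Lfng, a glycosyltransferase that tunes which ligand a receptor answers to, was at 0.25 (adjusted p = 0.0508). Limma called 0 of the 5 tested glycosylation genes, 3 of which had an unadjusted p below 0.05, where 46.2% of all genes did.

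Further HES, HEY and target genes comprised 15 tested genes, with 2 called lower and 1 higher. Nrarp, a Notch target that dampens the pathway, was at -4.67, -4.71 and -4.48 on the control arrays and -3.76, -3.63 and -4.09 on the knockdown arrays. Its change of 0.80 (SE 0.14, adjusted p = 0.0157 by limma) had no overlap, but the call was lost with slide row as a block (0.87, adjusted p = 0.0935), and without control 1 (0.77), control 2 (0.75) or knockdown 1 (0.76). The value was 0.27 after model-based background correction. Bhlhe40, a repressor of the same protein class, was at 0.97, 0.94 and 0.94 on the control arrays and 0.23, 0.15 and 0.34 on the knockdown arrays, a change of -0.71 (SE 0.06, adjusted p = 0.00207).

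Heyl, a close relative of Hey1, was well above background on 2 control arrays and no knockdown array. Its signals were -6.09, -5.18 and -5.67 in controls and -6.43, -7.11 and -6.86 in knockdown arrays (adjusted p = 0.0454 by limma). Only a limit can be given for its change, 1.24-fold lower, which is a point value with no error. After model-based background correction the change was -0.14 with the 75th percentile and -0.19 with quantile normalization. The call was lost under 10 of 18 alternative settings. Hes5, the Notch target that acts beside Hes1 in neural progenitors, was at 0.57, 0.59 and 0.60 on the control arrays and 0.63, 0.64 and 0.66 on the knockdown arrays, a change of 0.06 (SE 0.04, 95% confidence interval -0.03 to 0.16, adjusted p = 0.308). Hes5 was therefore readable where Hes1 was not, and it differed little. Further HES and HEY genes, named after their values were seen, went both ways. By limma, Hes2 was at 0.58 (adjusted p = 0.00675), Hey2 at -0.23 (adjusted p = 0.0486) and Hes7 at -0.22 (adjusted p = 0.0811).

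Of the proneural factors, the genes that HES proteins repress, limma called 0 of 8 tested, with 3 at an unadjusted p below 0.05, where 46.2% of all genes were. Only 8 of the 12 listed could be tested, and 4 were well above background on all 6 arrays, so a response of the others could be missed. Of the 6 tested further ligands and receptors 0 were called, with 1 at an unadjusted p below 0.05.

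The sizes of the members' changes were traced through the other ways of processing the arrays. Notch1 ran from -0.64 to -0.41 over 19 settings and passed by adjusted p in 11 of them. Hey1 ran from 0.25 to 0.42 and passed in 17, and Hes6 ran from 0.06 to 0.23 and passed in 8. Notch3 ran from -0.59 to -0.06, and passed in 2. Notch1 reached a call, with 1.5-fold or more, without control 3 (-0.63) and with arrays scaled to their median (-0.64).

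**Figure D4:**
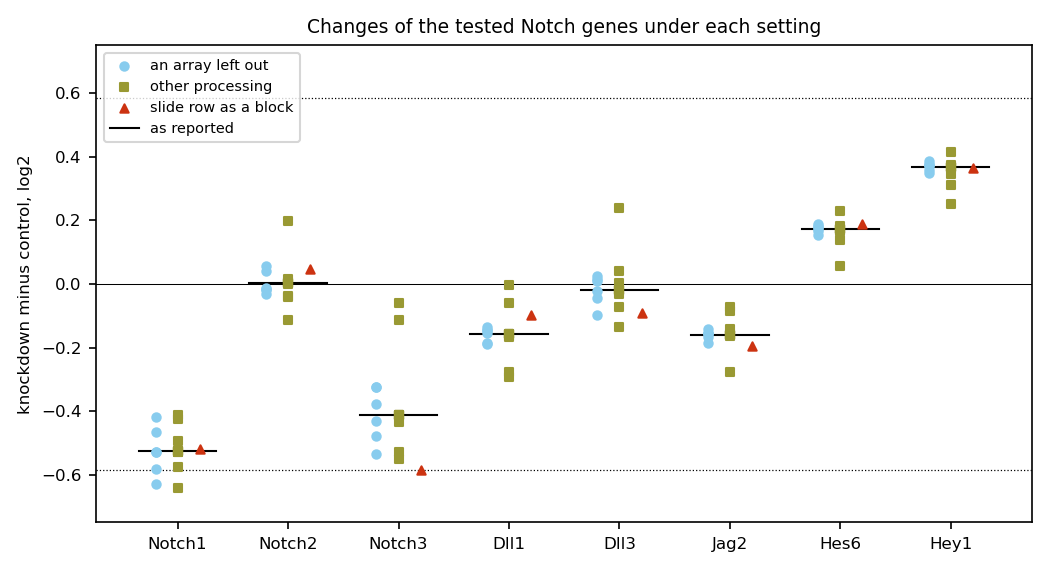
Change between knockdown and control arrays in log2 units (vertical axis) of the 8 tested Notch genes (horizontal axis) as reported (bar), with 1 array left out, under other processing and with slide row as a block, with dotted lines at a fold of 1.5. Notch1, Notch3, Dll1 and Jag2 lie below 0 and Hes6 and Hey1 above 0 under all settings, while Notch2 and Dll3 fall on both sides.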

How the data were processed

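Members, pathway lists and tests were chosen with earlier results of these data known. The deposited scanner tables, made with Agilent Feature Extraction 10.10.1.1 per the file headers, hold for each spot a processed intensity, already background-subtracted by the authors' software, and a flag for signal well above background. The authors' series matrix holds deposited log2 values of the same arrays, used as an alternative. Outlier spots were dropped, and spots of a probe were averaged on the log2 scale after subtraction of each array's 75th percentile. A probe was tested if it exceeded the array's 20th percentile on all 3 arrays of a group. This left 42126 probes, named or not, and those with a gene name covered 16490 genes. The share called over all tested probes includes the unnamed ones. Probes were named by accession through RefSeq (26582 probes matched). Groups were compared with limma 3.58.1 (lmFit and eBayes, R 4.3.3) with no covariate and Benjamini-Hochberg adjustment across the tested probes, and the script was tested on simulated data. A probe counted as well above background on an array when most of its unflagged spots did. Where a group was above background on none of its arrays, the fold was taken against a floor per array, the lowest signal well above background there or, if higher, what the probe itself read. Genes named are all members, the NF-Y subunits, every pathway gene called, and a fixed set of pathway genes given whether called or not, some of which are not reported here. Alternatives changed the scaling, background correction, filter, probe rule, variance model, replicate block, slide row and arrays left out. The scanner tables give a median and no mean signal per spot, so the alternative background correction (normexp, offset 50) used medians. The differences of Jag1 and Jag2, Hes1 and Hes6, and Dll1 and Dll3 are not given because Jag1, Hes1 and, in the knockdown group, Dll1 were not well above background. The number of arrays limits the precision.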

Additional observations from a re-analysis of the deposited data

How the results depend on the processing

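The member counts of 0 lower and 0 higher stayed as reported except with no minimum fold (1 lower, 2 higher) and, for lower, with median scaling (1); leaving out 1 array gave 0 to 1 lower. With no minimum fold, the pathway lists gave 14 lower and 22 higher, and all genes 2602 lower and 2597 higher. Among all genes, 382 were higher and 1175 lower with median scaling, 278 higher with normexp and the 75th percentile, and 549 lower and 292 higher with normexp and quantile normalization, beside 824 lower and 644 higher as reported.

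Signs turned where values lay near 0. Notch2 was -0.11 with median scaling, -0.042 with normexp and the 75th percentile, -0.037 with normexp and quantile normalization, -0.0011 in the series matrix and -0.032 to 0.056 with an array left out. Dll3 was 0.042 and 0.0019 under those 2 normexp settings, 0.24 as the mean of its probes and -0.099 to 0.025 with an array left out. Hes5 was -0.054 with median scaling, Ncstn 0.0059 with normexp and the 75th percentile, and Mib1 0.000146 with normexp and quantile normalization. The cause was not tested. Fbxw7 was not called with median scaling (0.54).

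With the replicate number as a block, 0 members were called and Nrarp lost its call (0.80, adjusted p = 0.079). Deviations of arrays with the same number correlated at 0.018, 0.067 and 0.0025, so no shared deviation was seen. Whether arrays with the same number were prepared together cannot be told from these values. The paired differences were not run under the blocks, the variance trend or the array weights. Dim probes limit what can be said of Notch3, Dll1, Jag1, Hes1 and Heyl.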
